A study of Mus musculus with 3 samples.

Results

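The cells described here are 304 endothelial cells of the mouse heart in which Lrg1, Col13a1, Cyp26b1 and Samd5 were the leading genes, out of 1733 endothelial cells and 5833 cells in all. A cell was taken as endothelial when the mean value of Pecam1, Cdh5, Egfl7, Emcn and Tie1 was at least 0.5 on the natural log scale and above the means of 5 fibroblast and 5 macrophage genes. Each endothelial cell was then scored on 4 sets of 4 genes, and it became a member when its mean z-score was above 0 and highest for Lrg1, Col13a1, Cyp26b1 and Samd5. The other sets gave 605 cells of a Car4 Timp4 type, 382 of a Hey1 Sema3g type and 132 of an Npr3 Nrg1 type, and 310 endothelial cells had no set above 0. Members were thus chosen by their own transcripts, so what follows compares them with other cells as a description, without a test.

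Interstitial cells were freed from minced hearts with collagenase II, cleared of most cardiomyocytes by a slow spin, and separated by flow cytometry for Lin28 and cKit at the cell surface. A single 10x Genomics 3' library stood for each of 3 sorted populations, labelled Lin28-/cKit-, Lin28+/cKit- and Lin28+/cKit+, and these are called here the double-negative, the single-positive and the double-positive library. No population had a second library, so no difference between them has a replicate check, and sort and library cannot be told apart. All intervals are exact 95% intervals that cover counting error only. The libraries held 3976, 681 and 1176 cells with medians of 8630, 9628 and 8068.5 unique molecular identifiers (UMIs, each counting 1 captured transcript molecule), and 0 to 8 cell barcodes were shared by a pair of libraries. Macrophage transcripts filled the cells outside the endothelium of both Lin28-positive libraries, where 12 markers summed to 29786 and 34855 CPM (the UMIs of a gene scaled to a common library total) against 413 CPM in the double-negative library. Fibroblast transcripts filled those of the double-negative library, at 69216 CPM for 12 markers against 5888 and 1036 CPM.

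Endothelial cells line every vessel and differ along it. Arterial cells use Notch signals, capillary cells of the heart take up fatty acids, and cells of veins and venules carry von Willebrand factor, the nuclear receptor COUP-TFII and adhesion molecules that catch leukocytes. The genes of the rule belong to several branches of this biology. Lrg1 encodes a secreted leucine-rich glycoprotein that modulates TGF-beta signalling in vessels, Col13a1 a transmembrane collagen, Cyp26b1 an enzyme that degrades retinoic acid, and Samd5 a protein with a sterile alpha motif whose role is less well known.

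All 4 genes are protein coding and lie on the minus strand of mm10 (GENCODE vM21). Lrg1 (ENSMUSG00000037095.8) spans chr17:56119678-56122001 and Col13a1 (ENSMUSG00000058806.14) spans chr10:61838236-61979108. Cyp26b1 (ENSMUSG00000063415.12) spans chr6:84571414-84593908 and Samd5 (ENSMUSG00000060487.7) spans chr10:9622936-9675208. RefSeq promoter windows (GRCm38.p6, the 250 bases before the annotated start) matched 4 of 4 genes and are shown because these genes chose the cells. They run 5′ to 3′ on the minus strand, with the 5-base ETS core GGAAG, or its reverse complement CTTCC, in capitals; the printed stretches are chr17:56122002-56122196, chr10:61979109-61979358, chr6:84593909-84594060 and chr10:9675209-9675458, which leave out the 55 bases of Lrg1 and 98 of Cyp26b1 that lie inside the GENCODE gene.
Lrg1: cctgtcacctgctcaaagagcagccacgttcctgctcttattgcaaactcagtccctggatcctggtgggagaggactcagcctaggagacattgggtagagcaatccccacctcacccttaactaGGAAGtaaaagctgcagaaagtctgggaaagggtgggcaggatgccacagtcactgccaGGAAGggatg
Col13a1: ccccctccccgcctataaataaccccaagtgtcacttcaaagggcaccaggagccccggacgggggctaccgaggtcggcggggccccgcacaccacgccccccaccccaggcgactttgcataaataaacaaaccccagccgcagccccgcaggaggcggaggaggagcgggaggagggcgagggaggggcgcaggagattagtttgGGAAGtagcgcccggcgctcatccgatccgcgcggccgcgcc
Cyp26b1: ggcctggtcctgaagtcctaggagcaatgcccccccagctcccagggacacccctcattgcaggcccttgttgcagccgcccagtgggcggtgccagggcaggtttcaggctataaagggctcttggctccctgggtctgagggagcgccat
Samd5: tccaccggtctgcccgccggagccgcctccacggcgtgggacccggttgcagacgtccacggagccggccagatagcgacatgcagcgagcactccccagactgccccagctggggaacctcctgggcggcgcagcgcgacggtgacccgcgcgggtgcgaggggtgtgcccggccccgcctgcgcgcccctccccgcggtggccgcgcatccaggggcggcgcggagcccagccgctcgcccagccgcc
In the whole 250-base windows, searched on both strands, the ETS core occurred 3 times for Lrg1, 1 time each for Col13a1 and Cyp26b1, and not for Samd5. ETS factors are the transcription factor family most often tied to endothelial genes, but the core is a short and common string, found in 64.1% of 32851 windows of the same length. A retinoic acid receptor half-site (AGGTCA, in 14.0% of windows), a STAT site (TTCNNNGAA, in 7.0%) and a SOX site (AACAAT, in 9.4%) were found in none of the 4 windows. GC content was 55.2% for Lrg1, 68.8% for Col13a1, 64.8% for Cyp26b1 and 78.4% for Samd5, all above the median window of 52.4%.

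Members were found in each library: 174 of 985 endothelial cells in the double-negative (17.7%, interval 15.3 to 20.2), 65 of 275 in the single-positive (23.6%, 18.7 to 29.1) and 65 of 473 in the double-positive (13.7%, 10.8 to 17.2). The intervals of the single-positive and double-positive libraries do not overlap, and that of the double-negative overlaps both. The members' median depth was 4606.5, 9567 and 6881 UMIs, so the library with the largest share was also the deepest, while the double-negative, with the middle share, was the shallowest. With every cell thinned to 1000 UMIs, which left out 107, 68 and 61 shallower cells of all kinds, the shares were 7.88, 6.45 and 4.74%, and the single-positive library no longer led. At that depth the choice rests on still fewer transcripts, and the part of depth in the shares was not tested further.

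**Figure D1:**
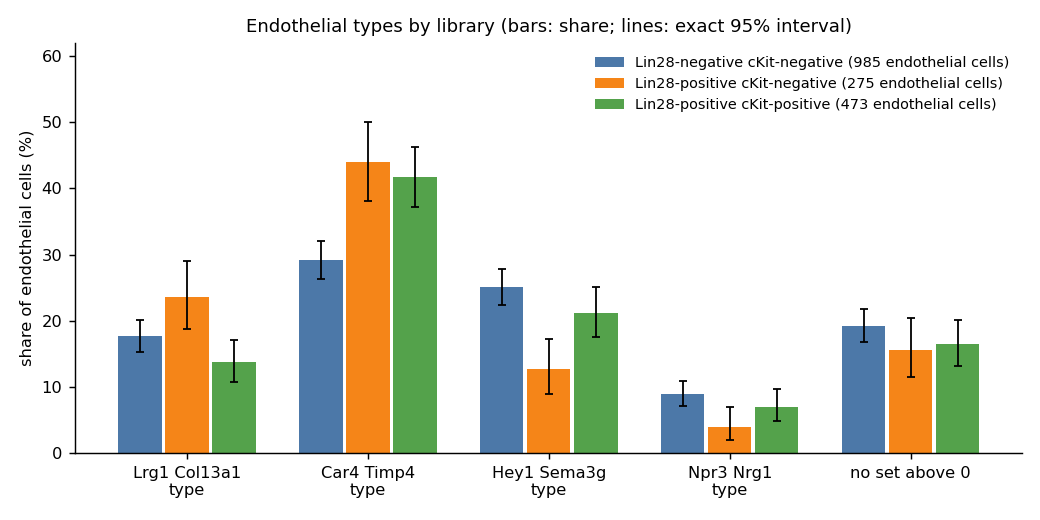
Share of endothelial cells given to each of the 4 types and to no set, in percent, by library; bars are shares and lines exact 95% intervals for counting error. The Lrg1 Col13a1 type holds 17.7%, 23.6% and 13.7% of endothelial cells in the double-negative, single-positive and double-positive library.

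The choice usually rested on 1 transcript species. Of the members, 212 had UMIs of a single rule gene, 77 of 2, 15 of 3 and 0 of all 4. Samd5 was found in 162 members, Cyp26b1 in 139, Col13a1 in 62 and Lrg1, which gives the type its name, in 48. In the cells of the other 3 types, 1006 of 1119 had none of the 4 genes, 112 had 1 and 1 had 2. The lead of the chosen set over the next one had a median of 0.622 z-score units and was under 0.5 in 126 members. Just inside the threshold the leads were 0.000133 and 0.00945, and just outside they were -0.00971 and -0.0663.

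Levels of the rule genes follow from the choice and are given as CPM of summed UMIs. Lrg1 stood at 74.9, 57.6 and 107 CPM in the members of the double-negative, single-positive and double-positive libraries, against 4.41, 3.82 and 0.490 CPM in the other 3 types. Col13a1 stood at 48.5, 43.2 and 57.5 CPM against 0, 0.764 and 0.981 CPM. Cyp26b1 stood at 176, 118 and 121 CPM against 7.71, 8.40 and 18.1 CPM. Samd5 stood at 161, 141 and 103 CPM against 6.98, 15.3 and 8.83 CPM. All 4 were thus low transcripts even where they defined the cell, and outside the endothelium each lay at or below 7.004 CPM in every library.

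Members carried the general endothelial genes. The 16 other endothelial markers, among them Kdr, Flt1, Tek, Cldn5 and Erg, summed to 6000, 6408 and 5586 CPM in members, against 6866, 7206 and 7100 CPM in the other 3 types and 265 to 337 CPM outside the endothelium. Neutrophil and lymphocyte markers were near absent, at 0 to 1.10 CPM for 6 genes and 0 to 7.72 CPM for 11 genes. Macrophage markers (12 genes) summed to 52.9, 432 and 834 CPM in members and to 27.2, 541 and 974 CPM in the other 3 types, so members and other endothelial cells shared the order of the libraries' surrounding cells. C1qc, Csf1r, Fcgr1, Adgre1, Cd163 and Folr2 were at 0 UMIs in the double-negative members. Fibroblast markers (12 genes) summed to 3620, 237 and 1101 CPM in members, against 6160, 727 and 2007 CPM in the other types, with Col1a2, Lum and Tcf21 at 0 in the single-positive members and Col1a1, Pdgfra, Dpt and Tcf21 at 0 in the double-positive. This order was not that of the surrounding cells, at 69216, 5888 and 1036 CPM. In the double-positive members 256 of the 536 fibroblast UMIs lay in 1 cell.

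A small block of members bore the transcripts of lymphatic vessels. Counting Prox1, the transcription factor of lymphatic identity, with Lyve1, Pdpn, Mmrn1, Ccl21a and Reln, 22 of the 304 members had UMIs of at least 3 of the 6 genes, none had exactly 2, and 12 had all 6. They numbered 8, 4 and 10 in the double-negative, single-positive and double-positive library. Of the 22, 20 had been chosen on Lrg1 alone and 2 on Col13a1 alone, and no UMI of Cyp26b1 or Samd5 was found in any of them. Lrg1 reached 213, 498 and 339 CPM in these cells. Ccl21a, the chemokine that draws dendritic cells into lymphatics, stood at 18290, 18383 and 22272 CPM there, against 8.05, 5.15 and 2.51 CPM in the other 282 members. Mmrn1, an extracellular multimerin of lymphatic endothelium, stood at 2898, 2514 and 1798 CPM against 4.60, 1.72 and 0 CPM. Of the 48 members with Lrg1 transcripts, 20 thus lay in a block that goes against a single cell type under that label. The cut of 3 genes was set after the values were seen, and results are therefore given with and without these cells.

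Each rule gene was next read in cells chosen with the other 3 genes only. Lrg1 was 4.96-fold (2.96 to 8.44), 2.49-fold (1.10 to 5.68) and 12.5-fold (5.06 to 34.9) higher in cells chosen on the other 3 genes than in the cells then given to the other types. Its levels there were 47.3, 24.8 and 43.4 CPM against 9.54, 9.96 and 3.48 CPM, but only 8, 9 and 3 of the chosen cells held any. Col13a1 was 6.89-fold (3.38 to 14.9), 4.99-fold (2.10 to 13.1) and 2.81-fold (1.18 to 6.46) higher. Samd5 was 3.57-fold (2.45 to 5.17), 2.78-fold (1.80 to 4.28) and 2.25-fold (1.17 to 4.11) higher. Cyp26b1 was 4.64-fold (3.33 to 6.50) and 3.28-fold (2.08 to 5.22) higher in the double-negative and single-positive libraries, while in the double-positive the ratio of 1.72 had an interval of 0.983 to 2.88 that holds 1. In 11 of the 12 readings of a gene in a library the interval thus lay above 1. Cells then left with no set above 0 were in neither group, and some of them carried the gene left out. For Lrg1 in the single-positive library 15 and 13 UMIs entered, against 36 and 5 in the first choice of cells. How the ratios would stand with those cells included was not tested.

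Clustering of the endothelial cells without the 31 genes of the rule showed where the members lay on the rest of their transcripts. Members made up 17.5% of the cells clustered and occurred in all 13 clusters. A cluster of 141 cells led by Rasa4, Prss23, Eln and Vegfc held 92 members (30.3% of members), which were 65.2% of its cells. A second one of 186 cells, led by Slamf1, Odc1 and Aqp1, held 63 members (20.7%), which were 33.9% of its cells. The cluster led by Reln, Ccl21a and Mmrn1, of 41 cells, held 22 members, 21 of them from the lymphatic-gene block. The remaining 127 members (41.8%) were spread over clusters in which they were the minority.

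The first 2 of these clusters divided by library. The Rasa4 Eln cluster took 118 cells from the double-negative library, 16 from the single-positive and 7 from the double-positive, and it held 40.8, 24.6 and 7.7% of each library's members. The Slamf1 Odc1 cluster took 6, 92 and 88 cells and held 1.7, 52.3 and 40.0% of members. Each drew mostly on libraries of 1 Lin28 sort, so a cell state and a library cannot be told apart here. In the Rasa4 Eln cluster Lrg1 stood at 93.2 CPM against 11.7 CPM in all other endothelial cells, a ratio of 7.94 (5.79 to 10.8), and Col13a1, Cyp26b1 and Samd5 had ratios of 7.25, 4.66 and 4.53. Few cells carried the level of Lrg1: its 72 UMIs there lay in 17 of the 141 cells, 40 of them in 8 of the 118 double-negative cells and 19 in 2 of the 7 double-positive ones. Lrg1 kept a ratio of 6.59 (4.14 to 10.5) and 5.93 (2.82 to 11.8) within the double-negative and single-positive cells of that cluster. In the Slamf1 Odc1 cluster Col13a1 was at 4.33 (2.87 to 6.51), Samd5 at 2.44 (1.93 to 3.08) and Cyp26b1 at 1.91 (1.497 to 2.41) times the other cells, whereas Lrg1 was lower, at 1.92 against 21.6 CPM, from 3 UMIs (ratio 0.0888, 0.0181 to 0.264). All 4 genes were thus high in the Rasa4 Eln cluster, while in the Slamf1 Odc1 cluster and in the cluster of lymphatic genes, where Cyp26b1 and Samd5 had 0 UMIs, Lrg1 parted from the others.

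**Figure D2:**
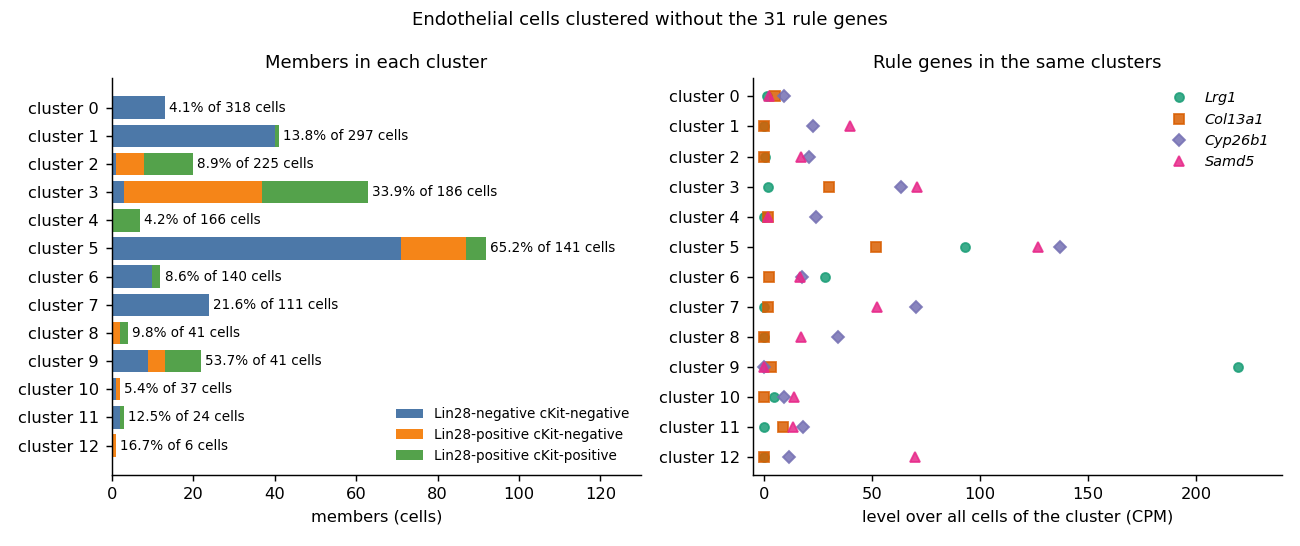
Left, members in each of the 13 clusters of endothelial cells made without the rule genes, stacked by library, with the percentage of each cluster's cells that are members; right, level of the 4 rule genes in each cluster in CPM. The Rasa4 Eln cluster holds 92 members at 65.2% of its cells, and Lrg1 is high there and in the cluster of lymphatic genes but at 1.92 CPM in the Slamf1 Odc1 cluster.

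Of the genes known from veins, Vwf and Vcam1 stood in members between the Car4 Timp4 type and the Npr3 Nrg1 type, while others, such as Aplnr, did not. In members without the lymphatic-gene cells, Vwf, the von Willebrand factor that tethers platelets, stood at 300, 400 and 228 CPM in the double-negative, single-positive and double-positive library. It stood at 20.7, 3.07 and 2.53 CPM in the Car4 Timp4 type, at 44.9, 40.3 and 8.70 CPM in the Hey1 Sema3g type and at 1946, 1020 and 1105 CPM in the Npr3 Nrg1 type. In each library members thus lay above the first 2 types (14.5-fold, 130-fold and 90.1-fold above the Car4 Timp4 type) and below the Npr3 Nrg1 type, the interval excluding 1 each time. Only 53 of 166, 32 of 61 and 16 of 55 of these members held a Vwf UMI. Outside the endothelium Vwf lay at 6.84, 2.88 and 2.28 CPM.

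Vcam1, which binds leukocyte integrins, stood at 231, 221 and 211 CPM in those members, against 25.8, 12.3 and 23.6 CPM in the Car4 Timp4 type (8.95-fold, 18.0-fold and 8.91-fold). Beside the Hey1 Sema3g type it was higher in the double-negative (6.56-fold, 4.52 to 9.79) and double-positive library (40.4-fold, 13.4 to 200), while in the single-positive library both stood alike at 221 and 206 CPM (ratio 1.08, 0.762 to 1.54). Nr2f2, which encodes the vein factor COUP-TFII, stood at 137, 136 and 92.8 CPM against 23.3, 39.9 and 11.8 CPM in the Car4 Timp4 type (5.88-fold, 3.39-fold and 7.85-fold). The Npr3 Nrg1 type had more Vcam1, at 781 to 1514 CPM. Its Nr2f2 stood at 198, 165 and 178 CPM, a ratio of members to it of 0.691 (0.533 to 0.896), 0.819 (0.486 to 1.45) and 0.521 (0.331 to 0.813), so the single-positive library showed no difference beyond counting error. Selp, the P-selectin gene, stood at 0 to 1.02 CPM in the Car4 Timp4 type and at 78.2, 73.5 and 46.3 CPM in the Npr3 Nrg1 type. Members held it at 46.0, 46.3 and 17.6 CPM, from 8, 8 and 3 cells. The venule gene Ackr1 was at 5.75, 0 and 0 CPM, and Aplnr, the apelin receptor of veins and capillaries, stood at 179, 142 and 136 CPM, close to the 163, 160 and 144 CPM of the Car4 Timp4 type and above the 4.79, 27.6 and 17.8 CPM of the Npr3 Nrg1 type (from 3, 3 and 5 UMIs).

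Vegfc, the growth factor of lymphatic vessels, stood at 201, 197 and 146 CPM in members against 48.2, 32.8 and 27.0 CPM in the Car4 Timp4 type (4.17-fold, 6.02-fold and 5.38-fold). The Hey1 Sema3g type carried it at 171, 80.5 and 136 CPM, and members exceeded that in the single-positive library (2.45-fold, 1.48 to 4.28) but not beyond counting error in the double-negative (1.18, 0.945 to 1.47) or the double-positive (1.07, 0.750 to 1.53). Eln, which encodes elastin, stood at 148, 120 and 105 CPM against 16.4, 7.17 and 3.38 CPM in the Car4 Timp4 type. The Npr3 Nrg1 type carried Eln at 112, 285 and 210 CPM, above members in the single-positive and double-positive libraries (ratios 0.422 and 0.501) and not beyond counting error apart from them in the double-negative (1.33, 0.985 to 1.80). Fmo2, a flavin monooxygenase, stood at 462, 835 and 454 CPM against 207, 138 and 144 CPM in the Car4 Timp4 type (2.24-fold, 6.04-fold and 3.14-fold). Odc1, the enzyme that opens polyamine synthesis, stood at 517, 527 and 542 CPM against 181, 238 and 149 CPM (2.86-fold, 2.22-fold and 3.65-fold). These levels were nearly the same in the 3 libraries for Odc1, and Fmo2 was highest in the single-positive members.

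Some arterial, junction and capillary genes were lower in members than in the Car4 Timp4 type. Dll4, the Notch ligand of arterial and sprouting cells, stood at 50.6, 41.2 and 47.7 CPM in members against 127, 140 and 171 CPM in the Car4 Timp4 type (ratios 0.397, 0.293 and 0.279) and 163, 188 and 223 CPM in the Hey1 Sema3g type. Cldn5, the claudin that seals endothelial junctions, stood at 240, 307 and 399 CPM against 917, 1115 and 1492 CPM (ratios 0.262, 0.275 and 0.267). Gja1, the gap junction gene of connexin 43, stood at 59.8, 34.3 and 50.2 CPM against 149, 167 and 133 CPM. Kdr, the main VEGF receptor, stood at 657, 516 and 580 CPM against 1207, 1157 and 1096 CPM, and Rgcc, a cell cycle regulator high in heart capillaries, at 631, 566 and 959 CPM against 1337, 1169 and 1321 CPM. In none of the 3 libraries did members reach the Car4 Timp4 type in these 5 genes, which were picked after their values were seen, and for Rgcc the double-positive ratio of 0.726 fell short of 1.5-fold. Fabp4 and Cd36, which carry fatty acids, were closer, at 18087 to 21058 CPM against 22167 to 25794 CPM for Fabp4 and 2358 to 3396 CPM against 3057 to 3877 CPM for Cd36. The Npr3 Nrg1 type stood below members in each library for Kdr (216, 239 and 178 CPM), Rgcc (31.9, 18.4 and 49.9 CPM) and Gja1 (30.3, 18.4 and 7.13 CPM). Its Dll4 (9.58, 18.4 and 53.4 CPM) was lower except in the double-positive library. Its Cldn5 (89.4, 395 and 114 CPM) was lower except in the single-positive.

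**Figure D3:**
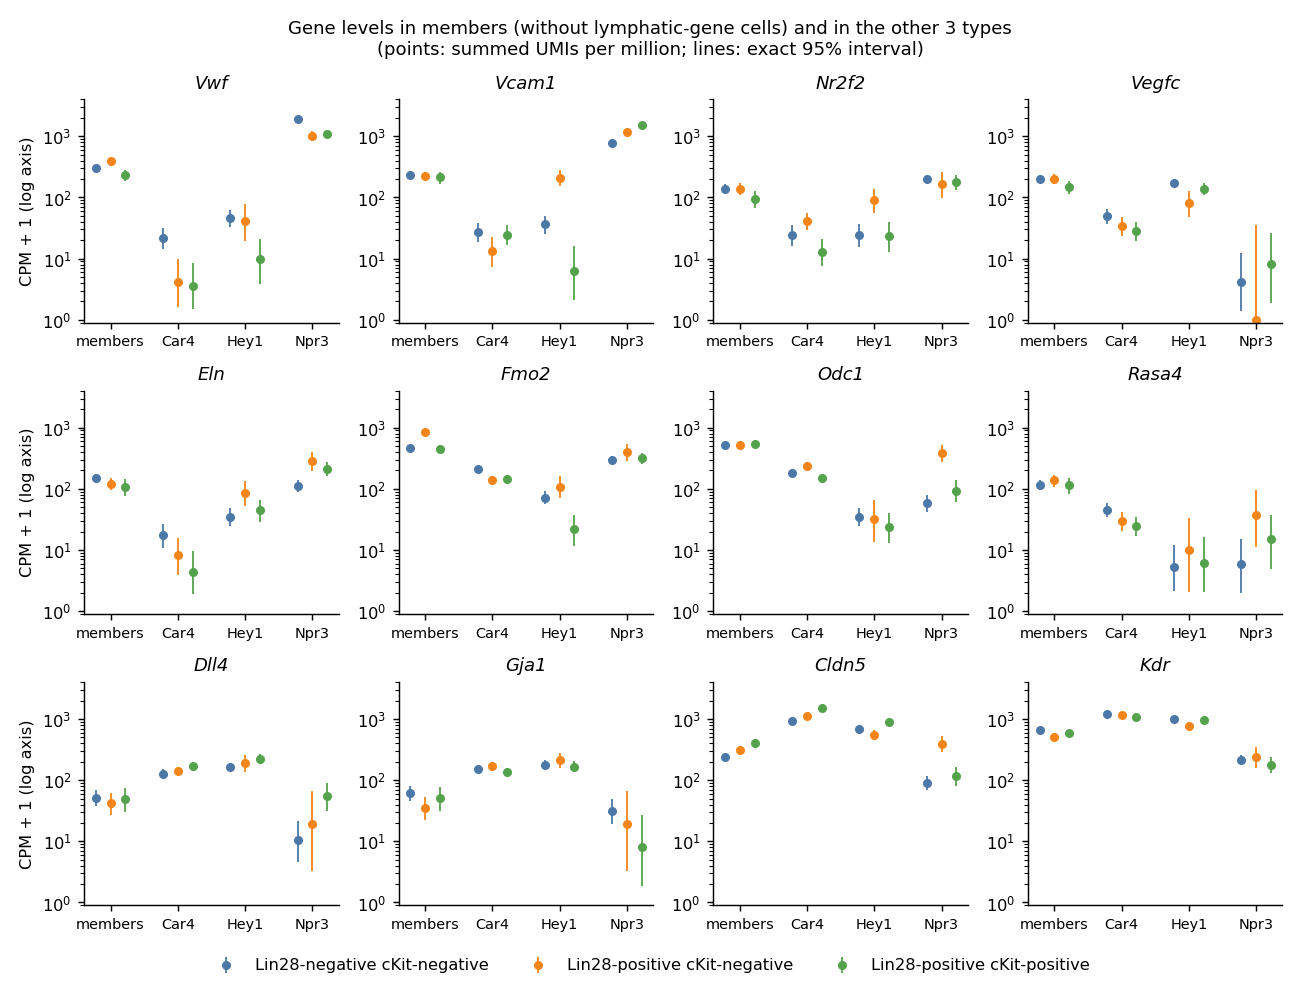
Level of 12 genes in CPM plus 1 on a log axis, in members without the lymphatic-gene cells and in the Car4, Hey1 and Npr3 types, 1 point per library. Vwf and Vcam1 in members lie above the Car4 type and below the Npr3 type, and Dll4, Cldn5 and Kdr lie below the Car4 type.

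Across all genes, a gene was called higher or lower where the ratio of members to the other 3 types pooled was at least 1.5-fold with an interval that excluded 1, in the same direction in all 3 libraries. Of 7683 genes with at least 20 UMIs in each library, 92 were called higher (1.2%) and 59 lower (0.768%). These counts depend on how many libraries must show the call: 140 and 98 were called without the double-negative library, 168 and 107 without the single-positive and 133 and 107 without the double-positive. With members chosen on 1 part of the UMIs and values read from the other, 42 were higher and 26 lower. Besides the 4 genes of the rule, 88 were higher, and 55 of these kept the call without the lymphatic-gene cells. In the fit without those cells, 64 of 7591 genes were higher (0.843%) and 55 lower (0.725%).

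Among the 20 non-rule genes called higher with the largest smallest ratio, 12 kept the call without the lymphatic-gene cells. Rasa4, a Ras GTPase-activating protein, stood at 110, 126 and 92.4 CPM in all members against 21.7, 26.0 and 17.2 CPM in the other 3 types (5.09-fold, 4.87-fold and 5.39-fold). Ltc4s, leukotriene C4 synthase, stood at 100, 92.8 and 94.5 CPM against 14.3, 19.1 and 21.1 CPM (7.01-fold, 4.86-fold and 4.48-fold). Cysltr1, a receptor for the cysteinyl leukotrienes made by that route, stood at 35.3, 65.6 and 22.6 CPM against 2.57, 3.06 and 4.90 CPM (13.7-fold, 21.5-fold and 4.61-fold). Enzyme and receptor of 1 lipid mediator pathway were thus both higher in members than in the other 3 types of each library. The Cysltr1 level of the double-positive members rested on 11 UMIs in 9 cells. In endothelial cells with no set above 0, which these ratios leave out, Ltc4s stood at 54.1, 15.3 and 64 CPM. In the double-positive library this was close to the 72.8 CPM of members without the lymphatic-gene cells. Cysltr1 was lower in the cells with no set above 0 than in members, in each library. Outside the endothelium Ltc4s stood at 2.83, 222 and 186 CPM and Cysltr1 at 1.65, 40.9 and 43.7 CPM. The part of transcripts from surrounding cells in these ratios was not tested.

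Prss23, a secreted serine protease, stood at 128, 160 and 166 CPM against 18.7, 34.4 and 5.39 CPM. Serpina1b, an alpha-1 antitrypsin gene with near-identical copies, so that its counts are uncertain, stood at 154, 205 and 135 CPM against 49.9, 14.5 and 28.9 CPM. Actn1, an actin crosslinker, stood at 215, 160 and 146 CPM against 75.3, 58.1 and 49.0 CPM. Slfn2, a gene of the Schlafen family, was 6.18-fold, 4.30-fold and 2.93-fold higher, while its level outside the endothelium was 6.53, 419 and 415 CPM. The actin-binding gene Synpo (2.79-fold, 3.45-fold and 4.52-fold), Abi3bp, Lhx6, Prpf40b and Pdia5 completed the 12. Beside the Npr3 Nrg1 type alone, Prss23, Abi3bp, Synpo and Actn1 were not higher in every library. Serpina1b stood at 118 CPM (80.9 to 165) in that type of the double-positive library, close to the 135 CPM of members. The 8 not called without the lymphatic-gene cells were Sema3d, Itih5, Prrt4, Lcn2, Dtx1, Nts, Maf and Mmrn1. Sema3d, Itih5 and Prrt4 then fell below the minimum of 20 UMIs in the double-positive library, so they could not be called. Itih5 still had ratios of 4.4, 4.5 and 4.4 and Prrt4 of 4.6, 6.0 and 5.1. Maf, in contrast, went from 8.29-fold, 3.11-fold and 12.7-fold to ratios of 0.298, 1.16 and 1.59 without the lymphatic-gene cells.

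Among 9 named lower genes, Sox17, an arterial transcription factor, stood at 59.5, 52.8 and 49.3 CPM in members against 170, 169 and 191 CPM in the other 3 types. Alpl, alkaline phosphatase of capillaries and arterioles, stood at 18.7, 9.60 and 6.16 CPM against 116, 58.1 and 103 CPM. Btnl9, a butyrophilin-like gene of heart endothelium, stood at 129, 91.2 and 142 CPM against 344, 400 and 381 CPM. Ptgs2, the inducible prostaglandin synthase, stood at 2.20, 0 and 0 CPM against 36.3, 15.3 and 27.5 CPM. Bmx, Comp, Cyp1b1, Msx1 and Tpst1 were the others. Btnl9, low beside the Car4 and Hey1 types, was above the Npr3 Nrg1 type in each library, at 23.9, 0 and 24.9 CPM there. Sox17 stood at 4.79, 0 and 53.4 CPM in the Npr3 Nrg1 type, below members in the double-negative and single-positive libraries but not in the double-positive.

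**Figure D4:**
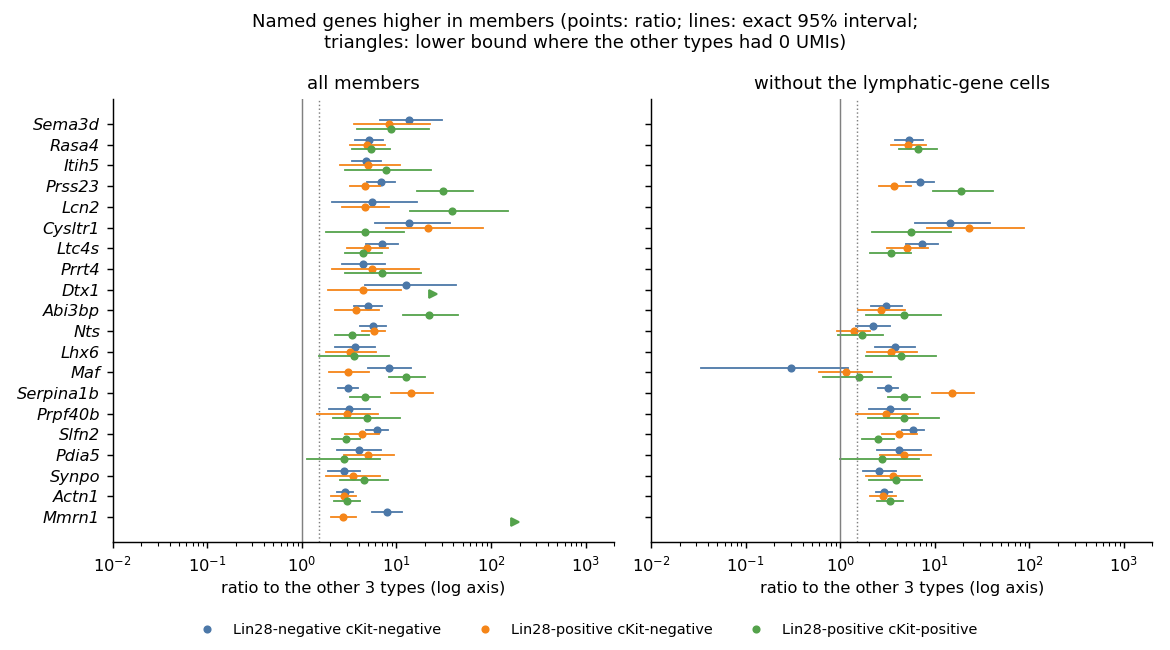
Ratio of members to the other 3 endothelial types for the 20 named higher genes on a log axis, 1 point per library with its exact 95% interval; left with all members, right without the lymphatic-gene cells, triangles marking lower bounds. Grey lines stand at 1 and dotted lines at 1.5. Rasa4, Ltc4s and Cysltr1 lie above 1.5 in every library on both sides, and Maf does so on the left only. Genes that fell below 20 UMIs in a library without the lymphatic-gene cells, such as Mmrn1, have no points on the right.

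The gene lists gave the counts beside these named genes, against 1.2% of all genes higher and 0.768% lower. Of 16 arterial genes measured, 0 were higher and 9 lower in members (Gja4, Hey1, Dll4, Efnb2, Unc5b, Sox17, Bmx, Cxcl12 and Sema3g), with median log2 ratios of -1.16, -1.21 and -0.91 against 0.01, 0.02 and 0.02 over all genes. Gja4, Hey1 and Sema3g, like Car4 below, belong to the sets that chose the other types, so that their lower level follows from the choice of cells. Of 13 venous and venular genes, 2 were higher (Nr2f2 and Il1r1) and 2 lower (Plvap and Mgp), with medians of 0.26, 0.55 and 0.26, and of 0.19, 0.53 and -0.09 without the lymphatic-gene cells. Of 15 capillary genes, 0 were higher, 3 lower (Car4, Cxcl12 and Aqp7) and 12 neither. Of 21 junction genes 0 were higher, 5 lower (Cldn5, Jam3, Plvap, Gja1 and Gja4) and 16 neither. Of 15 Notch pathway genes, 1 was higher (the ligand gene Dll1), 2 lower (Dll4 and Hey1) and 12 neither, also without the lymphatic-gene cells. Of 8 lymphatic genes measured, 6 were higher with all members, and without the lymphatic-gene cells 0 of 3 were.

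Genes around the enzyme Cyp26b1 did not form a block. Of 8 retinoic acid genes measured, Cyp26b1 alone was called. The retinoic acid receptor gene Rarg stood at 48.3, 70.3 and 75.3 CPM in members without the lymphatic-gene cells and at 51.7, 48.1 and 57.4 CPM in the Car4 Timp4 type. The retinaldehyde reductase Dhrs3 stood at 112, 220 and 125 CPM against 148, 135 and 133 CPM. Aldh1a2, which makes retinoic acid, was at 1.15, 0 and 0 CPM. Of 20 collagen genes measured, Col13a1 alone was higher. No gene of the fatty acid (13), immediate early (23), heat shock (20), unfolded protein (21), stress granule (32) or antigen presentation (13) lists was called in either direction. Of 17 genes of the IL6 and STAT3 response, a pathway known to raise Lrg1, Lcn2 alone was higher, and none was without the lymphatic-gene cells.

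Members were not alike among themselves. Over all libraries, Vwf stood at 745 CPM in members of the Rasa4 Eln cluster and at 126 CPM in those of the Slamf1 Odc1 cluster. In the 127 members outside these and the cluster led by lymphatic genes it stood at 128 CPM. Selp stood at 103, 0 and 22.1 CPM and Vcam1 at 374, 96.2 and 207 CPM in the same order. The first cluster's members had little Cldn5 (30.1 CPM) and Car4 (12.4 CPM), against 255 and 54.2 CPM in the second cluster and 515 and 89.8 CPM in the rest. Vegfc and Fmo2 were high in both clusters, at 305 and 257 CPM for Vegfc and 1003 and 619 CPM for Fmo2, and lower elsewhere, at 45.6 and 207 CPM. The difference in Vwf held inside libraries, at 512, 1136 and 1362 CPM in the first cluster against 240 (from 3 cells), 105 and 140 CPM in the second. These genes took part in the clustering, so the values describe the clusters and do not test them.

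Vwf and Fmo2 were higher in members with more rule genes, with an interval above 1 in each library. Eln (ratios 2.91, 1.94 and 1.65), Rasa4 (2.33, 1.81 and 1.67), Prss23, Serpina1b, Ltc4s and Odc1 also had ratios above 1 in each library. For these the interval held 1 in some libraries. Other genes, such as Cldn5, Vcam1 and Vegfc, differed by library. Leaving out the lymphatic-gene cells, 92 members had 2 or 3 rule genes and 190 had 1, at median depths of 5964, 10119.5 and 7646 UMIs against 4401, 8701 and 5253. Vwf stood at 521, 544 and 313 CPM with 2 or 3 genes and at 201, 237 and 145 CPM with 1, ratios of 2.59 (2.01 to 3.33), 2.30 (1.72 to 3.11) and 2.17 (1.37 to 3.49). Fmo2 had ratios of 1.76 (1.44 to 2.15), 1.21 (1.01 to 1.46) and 1.99 (1.45 to 2.76). Cldn5 was lower with more rule genes in the double-negative (0.290) and single-positive library (0.598), and equal in the double-positive (1.00). Vcam1 had ratios of 1.14 (0.841 to 1.54) and 1.45 (1.00 to 2.12) in the first 2 libraries and was lower with more rule genes in the double-positive (0.624, 0.389 to 0.987). Vegfc had ratios of 2.02 (1.48 to 2.74), 0.874 (0.595 to 1.28) and 1.93 (1.09 to 3.49). The single genes also differed: with Cyp26b1 alone (74 members) Vwf stood at 89.4 and Vcam1 at 40.6 CPM, with Samd5 alone (92 members) at 176 and 343 CPM, and with Col13a1 alone (16 members) at 338 and 70.0 CPM. The 8 members with Lrg1 alone outside the lymphatic-gene block had Vwf at 1022 CPM and no Vegfc UMI.

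Between the libraries, many of the largest differences in members lay in macrophage and fibroblast transcripts, and the other endothelial types showed several of these, such as those in Cxcl2, Lyz2 and Gsn, but not all. In the comparison of single-positive with double-negative members, 314 of 7382 genes were higher (4.25%) and 293 lower (3.97%) by the same 1.5-fold rule. Cxcl2, a neutrophil chemokine, stood at 190 CPM against 8.82 CPM (21.6-fold, 10.6 to 51.2). The other endothelial types showed the same difference (19.9-fold), and outside the endothelium Cxcl2 stood at 11139 against 111 CPM. Lyz2, lysozyme of macrophages, was 19.3-fold higher in members and 59.0-fold in the other types. Dcn, the fibroblast proteoglycan decorin, was lower in single-positive members, at 4.80 against 839 CPM (174.8-fold, 59.6 to 849), with 21005 CPM outside the endothelium of the double-negative library. Gsn, gelsolin, was 41.4-fold lower and Mgp, matrix Gla protein, 7.05-fold lower. The part of transcripts from surrounding cells in these differences was not tested. Of the called genes, 35 of the higher and 67 of the lower were among the 224 measured genes over 5-fold higher outside the endothelium.

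Other named genes in this comparison came from single cells. Of 93 Stmn1 UMIs in single-positive members, 72 lay in 1 cell, and without it the ratio fell from 4.50 to 1.02. Nts, neurotensin, had 126 of 194 UMIs in 1 cell and a ratio of 2.47 with it and 0.866 without it. Smc4 had 31 of 77 UMIs in 1 cell and a ratio of 2.54 with it and 1.52 without it. Cebpb, a transcription factor of acute inflammation, stayed higher, with ratios of 3.93 (2.83 to 5.53) and 2.50 without its richest cell, against 1.94 in the other types. Tppp3, a tubulin polymerization gene, stood at 27.2 against 136 CPM, 4.98-fold lower (2.99 to 8.83), while the other types had a ratio of 0.842 (0.596 to 1.18). Hbegf was 5.94-fold lower in members, with 42 of its 112 double-negative UMIs in 1 cell, and Cytl1 5.71-fold lower.

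Double-positive members were compared with single-positive ones, which share the Lin28 sort and differ in cKit. Of 6358 genes, 273 were higher (4.29%) and 282 lower (4.44%). Most of the named higher genes again came from few cells: Dcn had 114 of 146 UMIs in 1 cell, Postn 53 of 55, Cytl1 57 of 93 and Prnp 110 of 126, and Prnp had a ratio of 0.708 without that cell. Tppp3 was 4.15-fold higher (2.38 to 7.63), at 113 against 27.2 CPM, while the other types again had a ratio near 1 (0.831). Xist, the RNA of the silenced X chromosome, stood at 281 against 76.8 CPM (3.66-fold, 2.62 to 5.202). The sex of the animals behind each library is not given, and its part in this ratio was not tested. Among lower genes, Bgn, biglycan, stood at 24.6 against 109 CPM (4.41-fold lower), where the other types had a ratio of 1.88. Rapgef2 was 2.67-fold lower (1.71 to 4.30) and the linker histone gene Hist1h1c 2.37-fold lower (1.503 to 3.84), with ratios of 0.873 and 0.999 in the other types. Stmn1, Nts and Smc4 were lower through the single-positive cells already named.

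Between double-positive and double-negative members, 231 of 7038 genes were higher (3.28%) and 267 lower (3.79%). Ccl4, a macrophage chemokine, had 69 UMIs in double-positive members and 0 in double-negative ones, and Cd74, the invariant chain of MHC class II, stood at 203 against 29.8 CPM (6.83-fold, 4.43 to 10.9). C1qa (38.5-fold), Lyz2 (37.8-fold) and Cxcl2 (28.2-fold) were higher as in the other endothelial types, where C1qa was 75.5-fold higher. Ccl21a, at 4048 against 766 CPM, was higher through the lymphatic-gene cells, of which the double-positive library held more. Gsn was 60.9-fold, Bgn 6.57-fold, Dcn 2.80-fold, Hist1h1e 2.40-fold and Immt 2.27-fold lower. Gbp9, a guanylate-binding protein gene of the interferon response, stood at 80.1 against 175 CPM (2.19-fold lower, 1.53 to 3.19), while the other types had a ratio of 1.14 (0.961 to 1.36). Whether members differ from the other types in the ratios of Tppp3, Rapgef2, Hist1h1c and Gbp9 was not tested. The 3 comparisons share libraries, so their values are set side by side and not taken as separate support.

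**Figure D5:**
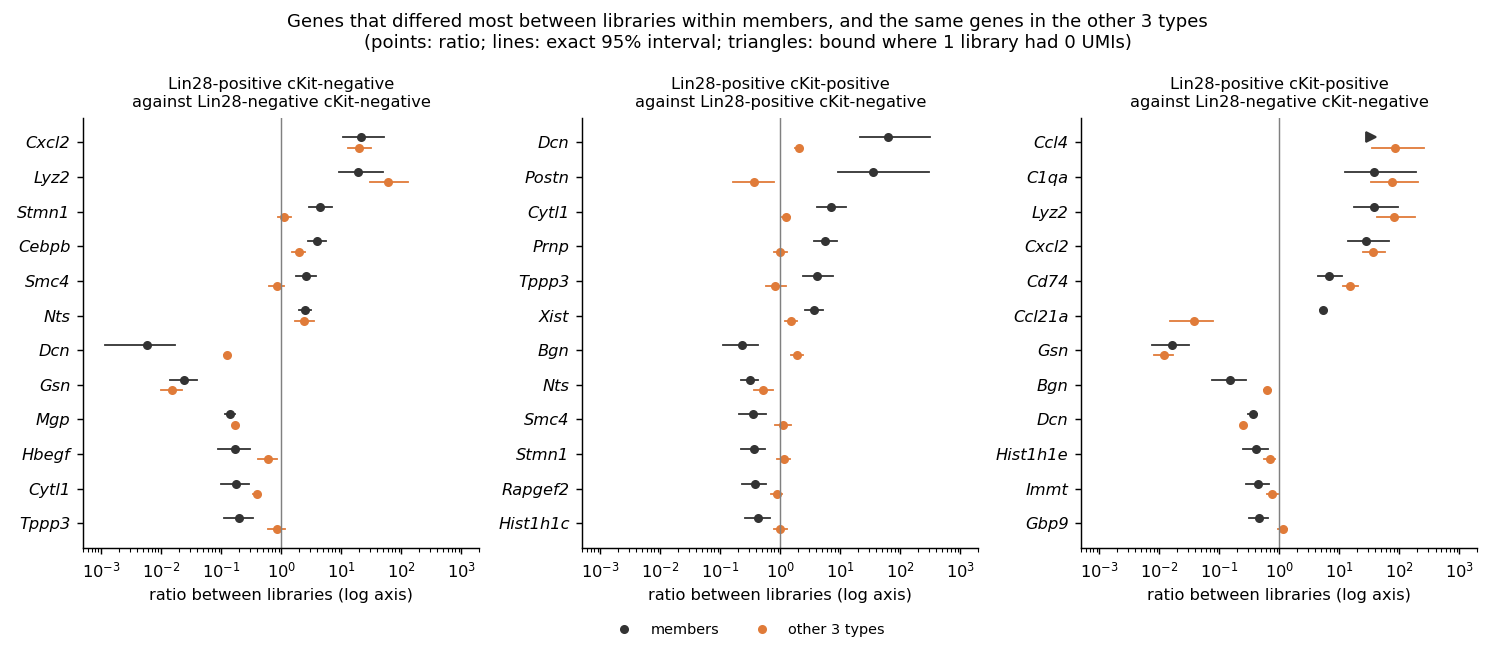
Ratio between libraries for the named genes of each comparison on a log axis, in members and in the cells of the other 3 endothelial types, with exact 95% intervals. Cxcl2, Lyz2, Dcn and Gsn differ in members as in the other types, whereas for Tppp3 and Gbp9 the interval lies off 1 in members and holds 1 in the other types.

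Within members the levels of the rule genes depend on the choice of cells, so their ratios between libraries only describe the cells chosen. Lrg1 was called higher in double-positive than in single-positive members (1.85, 1.19 to 2.92), but 18 of its 52 UMIs lay in 1 cell and the ratio was 1.21 without it. Samd5 was lower in double-positive than in double-negative members (0.638, 0.453 to 0.885), at 103 against 161 CPM. Col13a1 and Cyp26b1 were not called in any of the 3 comparisons.

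Several venous genes were lower in double-positive than in double-negative members, and Vwf and Selp were also below the single-positive ones. Vwf stood at 289, 373 and 187 CPM in all members of the double-negative, single-positive and double-positive library, a ratio of 0.501 (0.389 to 0.641) for double-positive to single-positive and 0.647 (0.504 to 0.824) for double-positive to double-negative. The latter was 0.761 and no longer called without the lymphatic-gene cells. Selp stood at 44.1, 44.8 and 14.4 CPM, from 8, 9 and 3 cells. Sele and Mgp were not lower than in single-positive members, at 24.6 against 16 CPM (from 3 and 5 cells) and 641 against 181 CPM. Of 14 venous genes measured between double-positive and double-negative members, Flt4 was higher and 5 were lower (Vwf, Selp, Sele, Mgp and Bgn), against 3.28% higher and 3.79% lower over all genes, with a median log2 ratio of -0.45; without the lymphatic-gene cells 0 were higher and 5 lower (Selp, Sele, Nrp2, Mgp and Bgn). Mgp and Bgn are also abundant in fibroblasts, whose transcripts moved the same way. Against single-positive members the capillary genes Car4, Timp4 and Rgcc were called higher, 3 of 15 measured, beside 4.29% of all genes. They stood at 78.03, 123 and 795 CPM against 40.0, 67.2 and 528 CPM. Of the same list, Cd36 (2119 against 3171 CPM) and Fabp4 (17858 against 19303 CPM) stood lower in the double-positive members. The double-positive library also had the fewest members in the Vwf-rich Rasa4 Eln cluster.

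Among the genes tied to the sort and to senescence, Kit, Cdkn1a and G3bp1 were called in none of the comparisons in which they were measured. Kit stood at 16.5, 14.4 and 12.3 CPM in members, from 15, 9 and 6 UMIs, with no excess in the library sorted as cKit-positive (ratio to double-negative 0.745, 0.237 to 2.03). Cdkn1a, the p21 inhibitor induced by p53, stood at 191, 275 and 222 CPM, and the single-positive to double-negative ratio of 1.44 (1.16 to 1.79) fell short of 1.5-fold and matched the 1.42 of the other types. Cdkn2a, the gene of p16 and a usual marker of senescence, had 0 UMIs in the members of every library, where the exact interval reaches up to 4.07, 5.90 and 7.58 CPM. Lmnb1, the lamin lost in senescence, stood at 14.3, 30.4 and 10.3 CPM, with 13 of the 19 single-positive UMIs in 1 cell: it was called lower in double-positive than in single-positive members (0.338, 0.0986 to 0.935), and the ratio was 1.07 without that cell. G3bp1, a core protein of stress granules, stood at 153, 126 and 183 CPM.

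Of 23 immediate early genes measured, 5 were higher in single-positive than in double-negative members (Fosl2, Egr1, Nr4a1, Zfp36 and Btg1), beside 4.25% of all genes, with a median log2 ratio of 0.27, and the other types gave 5 of 24 with a median of 0.32. Egr1 stood at 1497 against 951 CPM (1.57-fold) and Zfp36, which destabilizes inflammatory messages, at 774 against 441 CPM (1.76-fold). Double-positive members had 6 of 23 lower than single-positive ones (Fos, Fosb, Fosl2, Egr1, Nr4a1 and Zfp36), beside 4.44% of all genes, but 0 of 22 without the lymphatic-gene cells, and 0 of 23 were called against double-negative members. Of 32 stress granule genes, at most 1 was higher and 2 lower in any comparison, and of 20 heat shock genes at most 1 in either direction. Proliferation genes gave 11 of 12 higher in single-positive members, and 497 of their 532 UMIs lay in 1 cycling member.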

How the data were processed

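Mouse heart interstitial cells of 3 sorted populations were profiled with the 10x Genomics 3' v3.1 kit, 1 library each. Reads were processed with Cell Ranger and Seurat 4.0.2 on mm10, per the submitters' processing notes. The deposited tables hold natural log values per gene and cell, ln of 1 plus the count scaled to 10000 per cell. The sources used here do not give the number, age, strain or sex of the animals, nor the filters on cells. The files show cells of at least 500 UMIs and at most 9.99% mitochondrial UMIs.

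The methods had been planned for counts. Undoing the log gave whole UMIs for 100% of values (tolerance 0.01), so they were kept, and 0 sample columns were left unused. UMIs were summed over cells per library and type and given as CPM, with exact Poisson intervals, exact conditional binomial intervals for ratios and Clopper-Pearson intervals for shares (95%, scipy 1.17.1). Genes needed 20 UMIs, and a gene at 0 was set against a floor of 3 UMIs. Calls were made at 1.5-fold with an interval excluding 1, and no p-value was computed, since there is 1 library per population. The members, lists and rules were chosen with earlier results of these data known.

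Named genes are the rule genes, Kit, Cdkn1a, Cdkn2a, Lmnb1 and G3bp1; the 20 higher and 10 lower genes whose ratio nearest to 1 was largest (1 lower gene is not reported here); and the 6 largest in each direction per pair of libraries with at least 100 CPM and 50 UMIs, passing over mitochondrial, ribosomal, haemoglobin, Gm and Rik genes. Genes of a list were named by size, and levels by type were added for genes named after their values were seen. Clustering used scanpy 1.11.5 (2000 variable genes, 30 components, 15 neighbours, resolution 1). Doublets were not removed; an alternative left out the 5% of cells with the highest Scrublet scores, which took 1, 7 and 1 members. The calling script was tested on simulated sums with counting error only, so that test does not cover calls that rest on single cells. Alternatives covered thresholds, depth, scaling (trimmed mean of M-values, TMM), cell weights and libraries left out, and 4 were added after seeing the data.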

Additional observations from a re-analysis of the deposited data

Results flagged for a closer look

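Differences between members and the pooled other 3 endothelial types went in opposite directions in different libraries for 39 genes, 7 of them in a gene list. Each value is a ratio of members to the other types whose interval excludes 1, and the difference between libraries was not tested. Vwf, the von Willebrand factor gene, was at 0.612 in the double-negative library and at 3.97 in the single-positive. The endothelial factor gene Erg was at 0.531 in the single-positive and at 1.96 in the double-positive. Cpe, a carboxypeptidase gene of veins, was at 0.527 in the double-negative and at 1.79 in the single-positive. Angptl4, which inhibits lipoprotein lipase, was at 1.54 in the double-negative and at 0.465 in the double-positive. Pim1, a kinase gene downstream of STAT3, was at 0.651 in the double-negative and at 2.09 in the single-positive. The pericyte gene Kcnj8 was at 2.81 in the double-negative and at 0.161 in the single-positive, and the cardiomyocyte gene Tnnt2 at 1.61 and 0.296. The Vwf-rich Npr3 Nrg1 type made up 88 of 622, 11 of 167 and 33 of 330 cells of the other types, so the cells pooled differed between libraries; the part of this in the ratios was not tested.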

How the results depend on the processing

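No paired analysis was possible because each population is 1 library and no replicate numbers are shared. Shares of members in the double-negative, single-positive and double-positive library were 11.4, 14.9 and 8.88% with a lead of 0.5 over the next set, 4.06, 10.9 and 4.65% with at least 2 rule genes and 7.88, 6.45 and 4.74% after thinning. Choosing members on 1 part of each cell's UMIs, split at random into equal parts, and reading values from the other gave 13.0% in the double-negative library. Members against other types, called higher and lower, numbered 42 and 26 with split UMIs, 143 and 131 as means over cells called by size alone, 46 and 29 at 2-fold, 188 and 104 against the Npr3 Nrg1 type alone; 108 were lower against the Hey1 Sema3g type alone and 112 with no interval. Leaving out a library gave 133 to 168 higher and 98 to 107 lower. Single-positive against double-negative members gave 191 and 174 with split UMIs, 202 and 154 with at least 2 rule genes, 845 and 992 as means over cells, 197 and 190 at a minimum of 50 UMIs and 153 and 173 at 2-fold. Double-positive against single-positive gave 135 and 136, 130 and 181, 797 and 936, 157 and 168, and 167 and 157 in the same order. Double-positive against double-negative gave 138 and 135, 140 and 123, 730 and 1120, 137 and 152, and 141 and 177, with 351 higher at no minimum. Smaller totals follow where fewer UMIs, cells or genes enter; the cause of the other moves was not tested.

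As log2 ratios, reversals were as follows; for members against other types the value is that of the library least in the called direction, and the other libraries need not have reversed. Without the highest doublet scores Prnp was at -0.43 and Stmn1 at 0.60 (double-positive to single-positive), and Stmn1 was also at 0.60 without the cycling member. Without the richest cell, Prnp was at -0.42, Stmn1 at 0.60 and Nts at -0.19 (single-positive to double-negative). Maf was at -0.55 with at least 2 rule genes and at -1.16 without the lymphatic-gene cells. Against the Hey1 Sema3g type Dtx1 was at -0.04. Against the Npr3 Nrg1 type Prss23 was at -0.52, Lcn2 at -0.59, Abi3bp at -0.68, Maf at -0.91, Synpo at -0.13, Actn1 at -0.13, Mmrn1 at -1.48, Sox17 at 3.64 (double-negative library; the double-positive showed no difference) and Btnl9 at 2.51. The other 114 alternative values of shares and counts and 988 gene ratios stayed within the limits used, among them all shares and counts under TMM scaling, an endothelial threshold of 1 and cells of at least 2000 UMIs.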

Other observations

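Lymphatic genes also occurred in endothelial cells outside the members. By the same count of at least 3 of 6 genes, 6 of the 1119 cells of the other 3 types and 14 of the 310 cells with no set above 0 carried them, beside 22 of the 304 members. In the other 3 types these cells numbered 2, 4 and 0 in the double-negative, single-positive and double-positive library, and the 9 lymphatic markers summed to 244, 900 and 101 CPM there.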
